A study of Mus musculus with 19 samples.

Results

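The proteasome genes described here are the protein-coding mouse genes whose symbols begin with Psma, Psmb, Psmc, Psmd, Psme, Psmf or Psmg followed by a digit, with the inducible Psmb8 and Psmb9 left out. By this rule 48 of the 55487 genes in the tables were members. A further 4 genes with such symbols were not protein-coding and were not members. The rule used no expression value. Of the 48 genes, 47 passed the expression filter of the count test, and Psmb11, a subunit known from the thymus, did not, at 0 to 0.776 CPM (read counts scaled to a common library total). Psmc3ip was taken in by its symbol only: its product is a partner protein in meiotic recombination and not a proteasome subunit.

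RNA was sequenced from frozen cortex of male P301S/E4 mice, a tauopathy model by the title of the series, at 41 weeks of age. The lemborexant group had 10 libraries from mice given 30 mg/kg of lemborexant, an antagonist of both orexin receptors that is used against insomnia, by gavage once a day at zeitgeber time 13 from 7.5 to 9.5 months of age. The vehicle group had 9 libraries from mice of the same genotype and sex gavaged with 0.5% methylcellulose on the same schedule. The labels used here state neither the promoter of the transgene nor whether every library comes from its own mouse. The p-values are therefore about the spread among libraries, which may be technical, and no group without the P301S/E4 genotype was analysed here.

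The proteasome degrades proteins that carry ubiquitin chains. Its barrel-shaped core particle is built of stacked rings of alpha and beta subunits, and 3 of the beta subunits, encoded by Psmb5, Psmb6 and Psmb7, cut the substrate. The regulatory particle caps the barrel: its base holds the ATPases of the Psmc genes, which unfold the substrate, and its lid holds the deubiquitinase Psmd14. In the brain this machinery clears misfolded and short-lived proteins, and in animal models of tauopathy its activity has been studied as a route of tau clearance.

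Promoter windows from RefSeq (GRCm38.p6, 250 bases before to 50 bases after a transcription start) were found for 40 of the 48 genes, in 43 windows. They are shown for the catalytic subunit genes Psmb5 and Psmb6, which had the lowest and the highest log2 change of the beta ring after lemborexant, and for the regulatory genes Psmd6 and Psmc6, whose lemborexant and vehicle libraries overlapped little. Psmb5 lies at chr14:54617946-54618245 on the minus strand, Psmb6 at chr11:70525107-70525406 on the plus strand, Psmd6 at chr14:14120896-14121195 on the minus strand and Psmc6 at chr14:45329574-45329873 on the plus strand. Each window is written 5′ to 3′ along the gene and runs into the transcribed part of the gene. Capitals mark TGACNNNGC, the core of the antioxidant response element that Nfe2l1 binds, in Psmb5 and Psmb6, and CCGGAAG, a core of binding sites of the ETS family, in Psmd6 and Psmc6.
Psmb5: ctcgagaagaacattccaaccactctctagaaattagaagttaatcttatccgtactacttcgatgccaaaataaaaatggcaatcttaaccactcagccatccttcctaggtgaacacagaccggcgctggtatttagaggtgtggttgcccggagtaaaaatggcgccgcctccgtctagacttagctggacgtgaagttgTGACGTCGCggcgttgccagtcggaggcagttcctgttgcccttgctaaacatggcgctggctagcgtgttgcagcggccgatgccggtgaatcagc
Psmb6: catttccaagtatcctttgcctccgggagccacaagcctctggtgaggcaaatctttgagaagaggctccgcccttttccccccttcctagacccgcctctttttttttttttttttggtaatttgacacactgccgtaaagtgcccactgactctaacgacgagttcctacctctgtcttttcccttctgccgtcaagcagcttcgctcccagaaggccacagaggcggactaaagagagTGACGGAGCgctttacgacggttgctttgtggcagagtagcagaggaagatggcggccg
Psmd6: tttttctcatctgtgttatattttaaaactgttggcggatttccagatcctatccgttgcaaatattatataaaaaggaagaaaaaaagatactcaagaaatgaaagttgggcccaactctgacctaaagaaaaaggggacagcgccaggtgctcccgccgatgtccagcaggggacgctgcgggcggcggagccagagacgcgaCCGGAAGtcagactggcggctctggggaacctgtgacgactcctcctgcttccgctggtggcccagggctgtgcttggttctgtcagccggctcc
Psmc6: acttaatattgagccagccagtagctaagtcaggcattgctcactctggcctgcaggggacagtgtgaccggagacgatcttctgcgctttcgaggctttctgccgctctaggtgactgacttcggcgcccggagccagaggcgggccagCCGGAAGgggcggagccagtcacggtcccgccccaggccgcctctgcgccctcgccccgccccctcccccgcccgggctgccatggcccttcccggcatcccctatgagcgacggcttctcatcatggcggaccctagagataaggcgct

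Both strands of every window were searched for TGACNNNGC, CCGGAAG and CCAAT, the letters bound by NF-Y. TGACNNNGC was in 6 of the 43 windows, those of Psmb5, Psmb6, Psmc6, Psmd12, Psmd9 and Psme4, and in 12.4% of all 32851 windows of this length. CCGGAAG was in 16 of the 43 windows (37.2%) and in 8.86% of all windows. By particle it was in 1 of 12 windows of constitutive core genes, that of Psma6, and in 10 of 15 windows of regulatory particle genes (66.7%), among them those of Psmd6, Psmc6, Psmd4 and Psmd11. CCAAT was in 14 of the 43 windows (32.6%) and in 37.4% of all windows. These are matches of letters and not measured binding sites.

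The libraries held 20185098 to 31795633 reads on genes. All 12 markers of cortical neurons were detected in every library. Of 15 hippocampal markers, 15 had a log2 change below 0 and 3 passed the test, with a summed level of 274 to 907 CPM in lemborexant libraries and 665 to 1169 CPM in vehicle libraries. Of 10 thalamic markers tested, 9 lay above 0 and 3 were called higher after lemborexant, with a summed level of 532 to 1248 CPM in lemborexant libraries and 578 to 969 CPM in vehicle libraries. All 14 striatal markers lay above 0 and 1 was called, with 160.5 to 549 CPM in lemborexant libraries and 135 to 173 CPM in vehicle libraries. Of the 12 cortical neuron markers, 7 lay above 0 and 5 below, and 2 were called higher and 0 lower. They summed to 591 to 1316 CPM in lemborexant libraries and 1064 to 1340 CPM in vehicle libraries. Of 6 hepatocyte markers tested, 5 were called lower after lemborexant, and the list, which includes the choroid plexus gene Ttr, summed to 68.0 to 10220 CPM in lemborexant libraries and 30.5 to 8134 CPM in vehicle libraries. Its mean score was highest in vehicle 7, and without that library the median log2 change (lemborexant over vehicle) was −0.31 over the core genes and −0.20 over the regulatory particle genes. The part of the thalamic, striatal and cortical markers in the results was not tested. Pairs of lemborexant libraries (1 and 10, 3 and 8, 4 and 9) were nearly alike, with a chi-square of their counts of 3.08 to 3.66 per degree of freedom against at least 12.2 for every other pair. They differed by more than sampling noise, which does not show whether the libraries of a pair come from separate mice. They were kept as separate libraries in the main test. Counts of calls and medians are also given with these pairs summed (16 units, 7 of them lemborexant). Ribosomal RNA took over 3% of the reads in vehicle 3, 4 and 5 and lemborexant 6, at 3.23% to 3.83%, and 1.34% to 2.80% in the other 15 libraries. Cst7, a gene of activated microglia, was below 1 CPM in lemborexant 1 and 10 and vehicle 1 and 4.

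Psmb6, at a mean of 556 ± 45.2 TPM (a level scaled by transcript length and library total, SD, n = 19), had the highest level per length of the 48 genes in cortex. It was followed by the alpha subunit gene Psma7 at 417 ± 38.9, the beta subunit gene Psmb3 at 349.7 ± 29.3 and the ATPase gene Psmc5 at 341 ± 32.1 TPM (SD, n = 19 each). The means of Psmb3 and Psmc5 lay within an SD of each other. So did those of the next in order, Psmb2 at 298 ± 15.4 and Psmc1 at 285 ± 28.1 TPM. Differences between genes within the same libraries were not tested. The catalytic Psmb5 and Psmb7 had 255 ± 37.3 and 175 ± 14.6 TPM. At the low end were the assembly chaperone Psmg1 at 12.2 ± 2.09 TPM, the nuclear activator Psme4 at 9.54 ± 2.67 TPM and the testis subunit Psma8 at 0.897 ± 0.481 TPM, with Psmb11 at 0.0871 TPM (0 to 0.312). Psma3 varied least over the 19 libraries, with a coefficient of variation of 4.15%, and among the regulatory particle genes Psmd11 varied most, at 21.5%. Psme2b, a near copy of the activator subunit gene Psme2, had 9.64 ± 2.91 TPM, and how reads were divided between these copies is uncertain. For 22 members another gene model overlaps the gene, on the opposite strand for 17, and the sources used here do not state whether counting used strand.

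No proteasome gene passed the test between lemborexant and vehicle cortex. Log2 changes are lemborexant over vehicle, those of single genes ± SE. On the count scale the median log2 change was −0.29 over the 16 core genes tested and −0.20 over the 17 regulatory particle genes, and on the log2(TPM + 1) scale the medians were −0.045 and 0.03. Over all 19105 genes tested, the median on the count scale was 0.03. By sign, 43 of the 47 genes lay below 0 on this scale, against 46.4% of all genes. On the log2(TPM + 1) scale 20 of 46 did, where the median was 0.0155 over these members and 0.18 over all genes. Those above 0 on the count scale were Psma8, Psmd11, Psme4 and Psmf1. In bulk tissue, fewer cells of a type and less RNA per cell cannot be told apart.

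At an adjusted p of 0.05 (edgeR's quasi-likelihood test, Benjamini-Hochberg over all genes), 0 of 47 genes were called, where 498 of all genes (2.61%) were, 0.953% higher and 1.65% lower after lemborexant. For 0 of 47 genes did all libraries of a group lie beyond all of the other group, as 0.199% of all genes did. At an unadjusted p under 0.05, 24 of the 47 passed, all lower after lemborexant, where 13.5% of all genes were lower and 12.2% higher. At an adjusted p under 0.1, 10 of the 47 were lower and 0 higher, where 6.39% of all genes were lower and 4.79% higher. DESeq2 called 8 of the 47 lower (Psme3, Psmd6, Psmb5, Psmc6, Psmd7, Psma3, Psmd8 and Psmg3), against 5.32% of all genes, and limma on log2(TPM + 1) called 0 (0.711% of all genes), with 5 of 46 (10.9%) at an unadjusted p under 0.05, where 29.6% of all genes passed. With the nearly alike pairs summed, 0 members and 0 of all genes were called, 40 of the 47 lay below 0 and 13 were lower at an unadjusted p under 0.05 (10.8% of all genes). The medians were then −0.27 for the core and −0.19 for the regulatory particle, and the adjusted p (edgeR) was 0.137 for Psmb5, 0.153 for Psmc6 and 0.122 for Psme3.

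The calls moved with single libraries. Without vehicle 8, 4 members were called lower (Psme3, Psmd6, Psmb5 and Psmd7; 4.1% of all genes were called lower), and without lemborexant 6 or without vehicle 1, 3 were (Psmb5, Psmd6 and Psmg3; 3.7% and 2.57%). Without vehicle 9, 2 were called (Psmd6 and Psmb5; 1.91%), and without lemborexant 10, 1 was (Psmd6; 2.09%). The 24 members at an unadjusted p under 0.05 became 15 without vehicle 3, 14 without vehicle 4 and 13 without vehicle 5. The share of all genes at that threshold in either direction was 25.7% with every library, 21.8% without vehicle 3, 19.6% without vehicle 4 and 20% without vehicle 5.

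**Figure D1:**
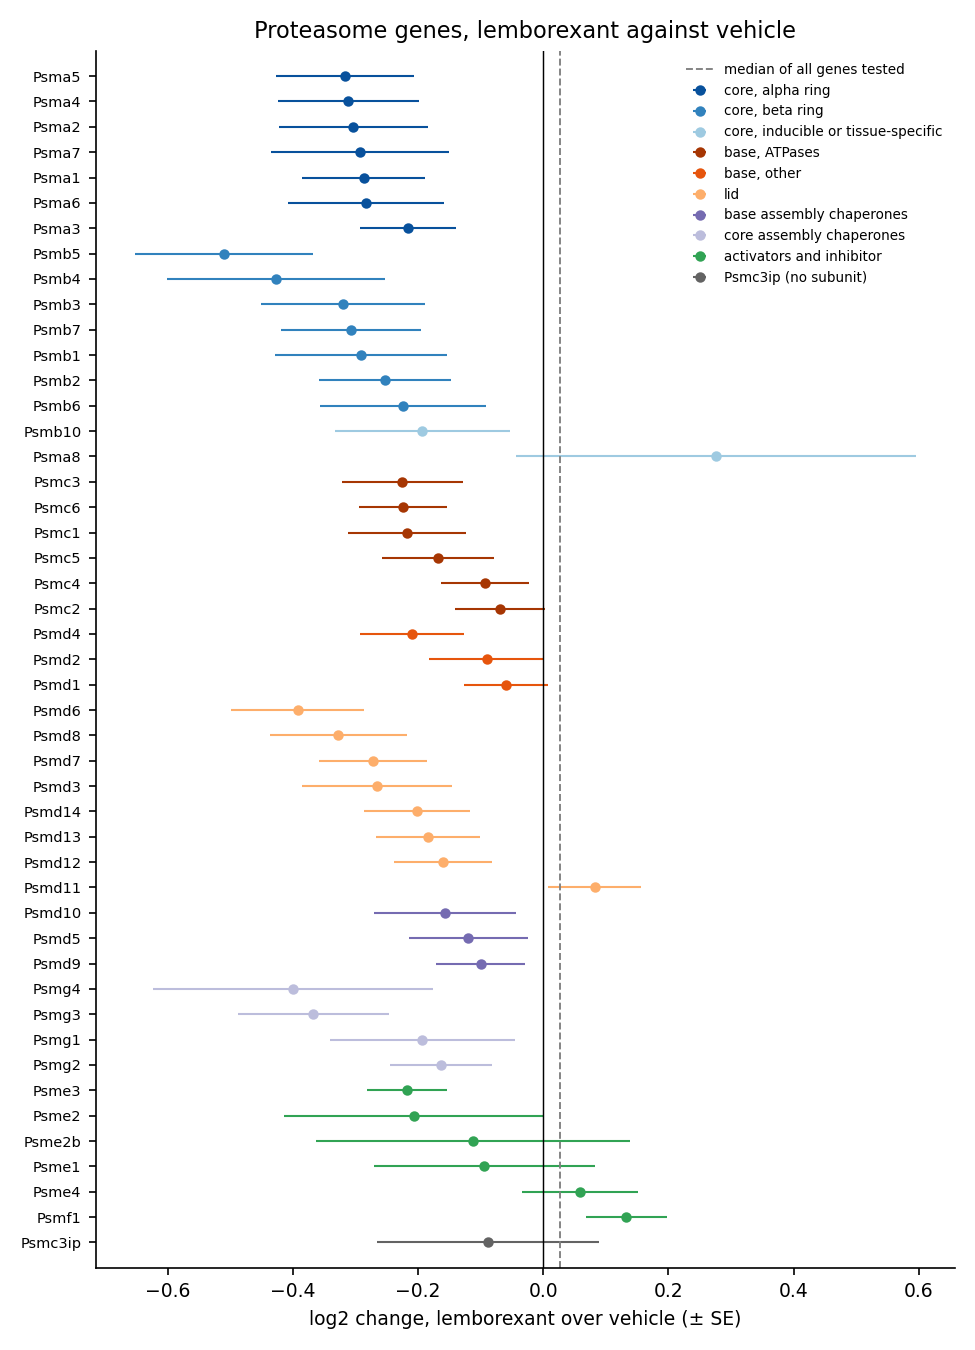
Log2 change of the 47 tested genes, lemborexant over vehicle (horizontal axis, points with SE bars, edgeR on counts), ordered by class; the dashed line is the median of all genes tested at 0.03. Of the 47, 43 lay below 0 on this scale, with Psmb5 at −0.51 the lowest. On the log2(TPM + 1) scale 20 of 46 lay below 0, where the median of all genes was 0.18.

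All 14 constitutive core genes had a log2 change below 0 on the count scale, at −0.51 to −0.22 with a median of −0.30. Of them, 12 had an unadjusted p under 0.05, where 13.5% of all genes were lower at that threshold. The lowest change belonged to Psmb5, the subunit with chymotrypsin-like activity. Its level was 104 CPM at the lowest, 124 at the median and 151.5 at the highest in lemborexant libraries, against 130.4, 150.3 and 279 CPM in vehicle libraries. Of the 10 lemborexant libraries, 7 lay below every vehicle library, and vehicle 3, 4 and 5 stood highest. Its log2 change was −0.51 ± 0.14 (SE, edgeR adjusted p = 0.0557), and −0.25 on the log2(TPM + 1) scale (limma adjusted p = 0.0736).

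The other catalytic subunits lay nearer to 0. Psmb7, with trypsin-like activity, had 110.4, 122 and 145 CPM (lowest, median and highest, the order used for genes from here on) in lemborexant libraries and 119, 137 and 228 CPM in vehicle libraries, a log2 change of −0.31 ± 0.11 (adjusted p = 0.105, edgeR). Psmb6, with caspase-like activity, had 227, 243 and 349.5 CPM in lemborexant libraries and 228, 263 and 432 CPM in vehicle libraries. Vehicle 3, 4 and 5 lay above every lemborexant library, and the other 6 vehicle libraries lay within the lemborexant range. The log2 change was −0.22 ± 0.13 (adjusted p = 0.285, edgeR), and on the log2(TPM + 1) scale it was 0.01. The inducible Psmb10, which takes the place of Psmb7 in the immunoproteasome, had 68.6, 78.9 and 120.1 CPM in lemborexant libraries and 66.4, 81.1 and 144 CPM in vehicle libraries, with a log2 change of −0.19 ± 0.14 (adjusted p = 0.389, edgeR) and 0.02 on the log2(TPM + 1) scale.

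In the alpha ring, which gates the entry to the core, the 7 genes lay between −0.32 and −0.22 on the count scale. Psma5 was the lowest of them, with 116, 139 and 164 CPM in lemborexant libraries and 136, 155 and 236 CPM in vehicle libraries (log2 change −0.32 ± 0.11, adjusted p = 0.0926, edgeR). Psma3, the gene with the smallest spread on TPM, had 195.5, 214 and 229.7 CPM in lemborexant libraries and 219, 233 and 308 CPM in vehicle libraries (log2 change −0.22 ± 0.08, adjusted p = 0.0947, edgeR). Its level per length was 171 ± 7.80 TPM in lemborexant libraries and 171 ± 6.71 TPM in vehicle libraries (SD, n = 10 and 9). Psma8 was low, at 0.267, 0.718 and 1.52 CPM in lemborexant libraries and 0.287, 0.708 and 1.06 CPM in vehicle libraries, with a log2 change of 0.28 ± 0.32 (adjusted p = 0.604, edgeR).

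Of the 17 regulatory particle genes, 16 had a log2 change below 0 on the count scale. At an unadjusted p under 0.05, 10 were lower, against 13.5% of all genes. Psmd6, a lid subunit, came nearest to the threshold of all 47 genes. Its level was 83.0, 104 and 113 CPM in lemborexant libraries and 112, 121 and 191 CPM in vehicle libraries. Of the 10 lemborexant libraries, 8 lay below every vehicle library. The log2 change was −0.39 ± 0.11 (adjusted p = 0.0503, edgeR, and 0.118 with the pairs summed), and −0.145 on the log2(TPM + 1) scale (limma adjusted p = 0.190).

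Psmc6, an ATPase subunit, had 88.9, 100.8 and 104 CPM in lemborexant libraries and 103, 110.1 and 143 CPM in vehicle libraries, and again 8 lemborexant libraries lay below every vehicle library. Its log2 change was −0.22 ± 0.07 (adjusted p = 0.0725, edgeR), and 0.02 on the log2(TPM + 1) scale. Psmc3, the ATPase gene with the lowest change, had 160.2, 208 and 242 CPM in lemborexant libraries and 216, 229.7 and 331 CPM in vehicle libraries, with a log2 change of −0.23 ± 0.10 by edgeR (adjusted p = 0.155) and 0.00 on the log2(TPM + 1) scale. The remaining ATPase genes Psmc1, Psmc2, Psmc4 and Psmc5 had log2 changes between −0.22 and −0.07. The groups overlapped for each of these 6 genes.

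Psmd4, a ubiquitin receptor in the base, had 134, 146.5 and 163.5 CPM in lemborexant libraries and 144, 158.5 and 211 CPM in vehicle libraries, a log2 change of −0.21 ± 0.08 (adjusted p = 0.128, edgeR) and 0.02 on the log2(TPM + 1) scale. The lid deubiquitinase Psmd14 had 112, 137 and 160.5 CPM in lemborexant libraries and 136, 149 and 199 CPM in vehicle libraries, a log2 change of −0.20 ± 0.09 (adjusted p = 0.146, edgeR) and 0.02 on the log2(TPM + 1) scale. Both genes had overlapping groups. Psmd11, a lid subunit that contacts the core, was the regulatory gene above 0, with 106, 130.3 and 146 CPM in lemborexant libraries and 99.7, 120.5 and 135.5 CPM in vehicle libraries (log2 change 0.08 ± 0.08, adjusted p = 0.4996, edgeR). On the log2(TPM + 1) scale its change was 0.33 (unadjusted p = 0.0285, adjusted p = 0.132, limma).

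The assembly chaperones of the core, Psmg1 to Psmg4, lay at −0.40 to −0.16 and those of the base, Psmd5, Psmd9 and Psmd10, at −0.16 to −0.10 on the count scale. Psmg4 had 8.14, 10.02 and 24.8 CPM in lemborexant libraries and 9.20, 13.4 and 26.2 CPM in vehicle libraries, and its log2 change of −0.40 ± 0.22 had an adjusted p of 0.261 (edgeR). Psmg3 had 23.5, 26.3 and 34.3 CPM in lemborexant libraries and 25.4, 31.2 and 50.4 CPM in vehicle libraries (log2 change −0.37 ± 0.12, adjusted p = 0.0825, edgeR). The base chaperone with the lowest change, Psmd10, had 28.5, 30.8 and 38.9 CPM in lemborexant libraries and 24.1, 32.8 and 48.5 CPM in vehicle libraries (log2 change −0.16 ± 0.11, adjusted p = 0.388, edgeR; 0.085 on the log2(TPM + 1) scale).

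Among the activators, Psme3, whose product forms a nuclear activator ring, had 40.7, 45.1 and 51.2 CPM in lemborexant libraries and 44.7, 53.3 and 58.5 CPM in vehicle libraries (log2 change −0.22 ± 0.06, adjusted p = 0.0621, edgeR; −0.01 on the log2(TPM + 1) scale). Psme1 and Psme2, whose products form the interferon-inducible activator, had log2 changes of −0.09 ± 0.18 and −0.21 ± 0.21 (adjusted p = 0.765 and 0.541, edgeR) and of 0.12 and 0.04 on the log2(TPM + 1) scale. Psmf1, an inhibitor of the core in vitro, was above 0, with 50.3, 58.7 and 68.3 CPM in lemborexant libraries and 44.9, 55.5 and 59.3 CPM in vehicle libraries. Its log2 change was 0.13 ± 0.07 (adjusted p = 0.203, edgeR), and 0.32 on the log2(TPM + 1) scale (adjusted p = 0.0866, limma). Psme4 had a log2 change of 0.06 ± 0.09 and Psmc3ip of −0.09 ± 0.18 (adjusted p = 0.714 and 0.782, edgeR), and without the libraries over 3% ribosomal RNA these were −0.03 and 0.07.

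A few libraries stood apart in these levels. The 14 constitutive core genes summed to 2008 CPM at the lowest, 2194 at the median and 2851 at the highest in lemborexant libraries, against 2146, 2473 and 3944 CPM in vehicle libraries. The 17 regulatory genes summed to 2306, 2742 and 2902 CPM in lemborexant libraries, against 2711, 2881 and 3872 CPM in vehicle libraries. Vehicle 3, 4 and 5 stood above all 16 other libraries for 30 of the 47 genes, for 14 of the 14 constitutive core genes and for 12 of the 17 regulatory genes. The highest library was vehicle 4 or vehicle 5 for 40 of the 47. Lemborexant 6 was the highest lemborexant library for 13 of the 14 core genes and for 2 of the 17 regulatory genes. The share of all genes with these library orders was not counted. These counts therefore do not show a trait particular to proteasome genes.

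**Figure D2:**
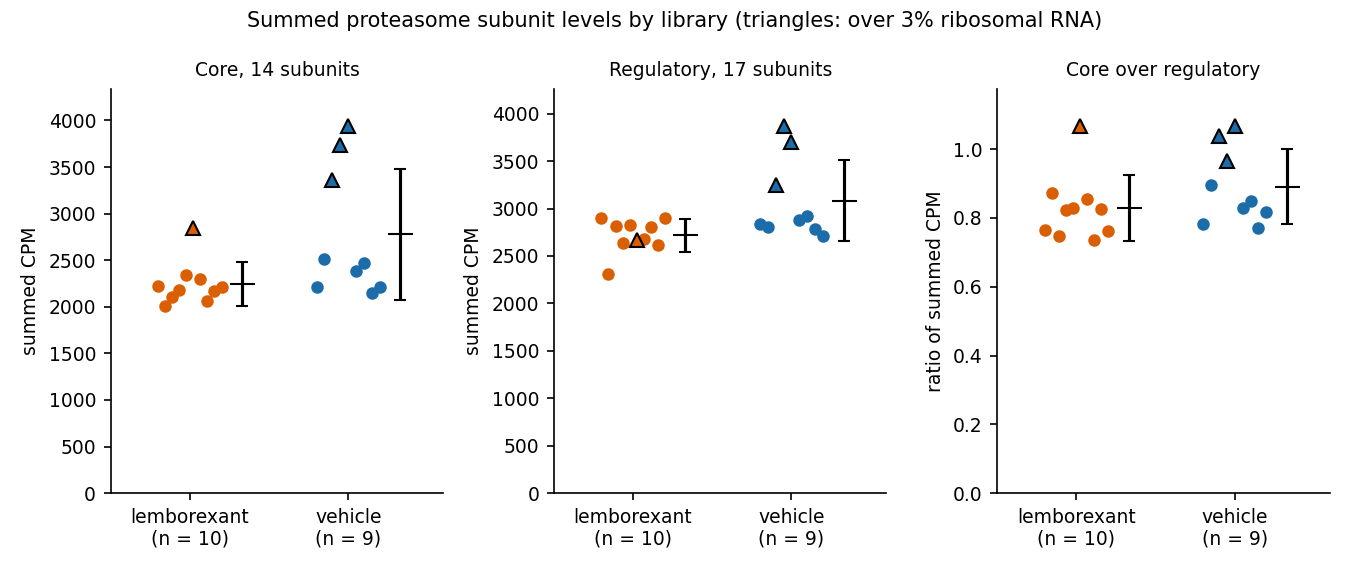
Summed CPM of the 14 constitutive core genes, of the 17 regulatory particle genes, and their ratio (vertical axes) in each of 10 lemborexant and 9 vehicle libraries, with mean and SD at the right of each group and triangles for libraries over 3% ribosomal RNA. Core sums of vehicle 3, 4 and 5 were 3366 to 3944 CPM, and lemborexant 6 stood at 2851 CPM, above the other lemborexant libraries.

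These 4 libraries were those over 3% ribosomal RNA. The ratio of summed core to summed regulatory CPM was 0.966 to 1.068 in them and 0.735 to 0.895 in the other 15, and on TPM the ratio was 1.51 to 1.70 against 1.15 to 1.41. The same 4 libraries had 4.69% to 5.93% of reads on mitochondrial protein-coding genes, against 3.35% to 4.80% in the others. Their 13 choroid plexus markers summed to 182 to 2260 CPM, against 272 to 13440 CPM. Without these 4 libraries (left out after seeing the data), 0 members and 0 of all genes were called, the medians were −0.09 for the core and −0.05 for the regulatory particle, and 38 of the 47 genes lay below 0. Psmb5 was then at −0.22 (adjusted p = 0.205, edgeR) and Psmd6 at −0.18 (adjusted p = 0.265, edgeR). Among libraries with at most 3% ribosomal RNA, the core genes summed to 2008 to 2342 CPM in 9 lemborexant libraries and to 2146 to 2513 CPM in 6 vehicle libraries. The part of RNA quality or of the dissected tissue in the difference was not tested.

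**Figure D3:**
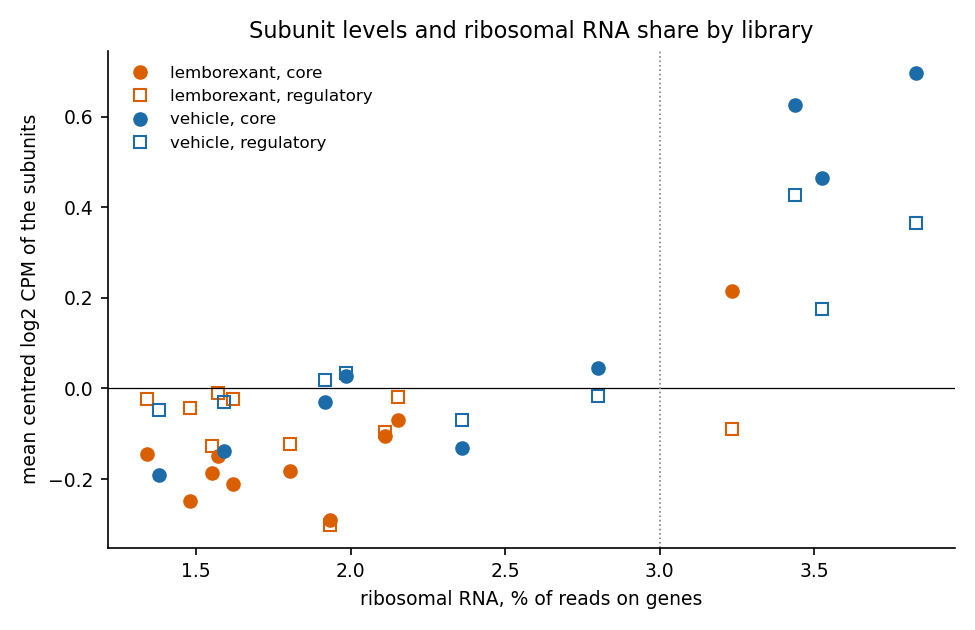
Share of reads on ribosomal RNA (horizontal axis, percent; dotted line at 3%) against the log2 CPM minus its average over the 19 libraries (vertical axis), averaged over the 14 constitutive core genes (filled) and the 17 regulatory genes (open), 10 lemborexant and 9 vehicle libraries. The 4 libraries over 3% had core means of 0.22 to 0.70, and the other 15 had −0.29 to 0.05.

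The library numbers form ranges, 1064 to 1602 (7 lemborexant and 7 vehicle libraries) and 859 to 933 (3 lemborexant and 2 vehicle libraries). All 4 libraries over 3% ribosomal RNA were in the range of 1064 to 1602. Within 1064 to 1602, 0 members and 8 of all genes (0.0422%) were called, and the medians were −0.34 for the core and −0.24 for the regulatory particle, with 42 of 47 genes below 0. Within 859 to 933, 0 members and 0 of all genes were called, and the medians were −0.03 for the core and 0.02 for the regulatory particle, with 30 of 47 genes below 0. Lemborexant 8, 9 and 10 in this range were nearly alike to lemborexant 3, 4 and 1 in the other range. The ranges are therefore not separate sets of lemborexant libraries, and 859 to 933 holds only 2 vehicle libraries. With the hippocampal marker score as a covariate, 0 members and 0 of all genes were called and the medians were −0.33 and −0.08. The score itself went with treatment, at −1.256 to 0.457 in lemborexant and 0.278 to 0.747 in vehicle libraries. This fit therefore separates score from treatment poorly, and its 0 calls do not show a part of hippocampal tissue.

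On the log2(TPM + 1) scale the median of all genes itself moved to 0.18, and on that scale the core median was −0.045 and the regulatory median 0.03. Relative to the median of all genes, the core lay 0.32 lower on the count scale and 0.22 lower on TPM, and the regulatory particle 0.23 and 0.14 lower. Transcript lengths were set beside the changes on the count scale, and the source of the shift between the scales was not tested. Over all protein-coding genes tested, the median log2 change on the count scale was −0.33 for transcripts of at most 750 bases, −0.23 between 750 and 1000, −0.15 between 1000 and 1500, −0.06 between 1500 and 2000, and 0.14 above 5000 bases. The constitutive core genes had a median transcript length of 1064 bases and the regulatory genes of 1534, against 2545 for all protein-coding genes tested.

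Most members lay below the median of their own length bin, a value that by definition splits the genes of the bin evenly. The part of length in the members' changes was not tested. Between 750 and 1000 bases, 11 members had a median of −0.28 against −0.23 for the bin, and 7 of them lay below the bin's median. Between 1000 and 1500 bases, 18 members had a median of −0.20 and 13 lay below it. Between 1500 and 2000 bases, 9 members had a median of −0.18 and 8 lay below it, and between 2000 and 3000 bases, 7 members had a median of −0.22 and all 7 lay below the bin's 0.01. Across genes, the Spearman rho of length and log2 change was 0.414 over the 47 members and 0.333 over 15116 protein-coding genes, where genes share the same libraries and are not independent replicates.

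**Figure D4:**
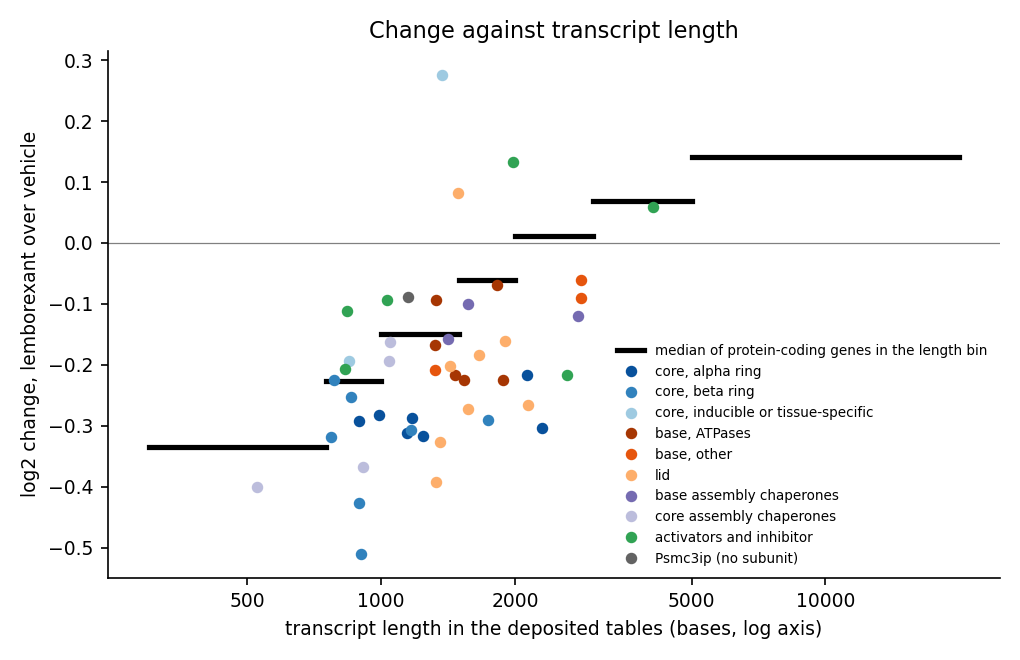
Transcript length in bases (horizontal log axis) against the log2 change, lemborexant over vehicle, on the count scale (vertical axis), for the 47 tested genes by class, with black bars for the median of all protein-coding genes in a length bin. The bin medians run from −0.33 for the shortest to 0.14 for the longest transcripts. Most members lie below the bar of their own bin on this scale. On log2(TPM + 1) 20 of 46 lay below 0, where the median of all genes was 0.18.

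Genes that work with the proteasome were read in the same fit. Of 12 accessory genes, 0 were called, 10 lay below 0 on counts and 5 had the lower mean TPM in lemborexant libraries. Their median was −0.22, and 7 had an unadjusted p under 0.05 with a change below 0, against 13.5% of all genes. Pomp, which matures the core, had a log2 change of −0.33 ± 0.16 (adjusted p = 0.193, edgeR), and the ubiquitin receptor Adrm1 of −0.20 ± 0.08 (adjusted p = 0.118, edgeR), with 104 ± 13.5 TPM in lemborexant libraries and 102 ± 9.33 TPM in vehicle libraries (SD, n = 10 and 9). Of 5 genes listed for the transcriptional control of the proteasome (Nfe2l1, Nfe2l2, Nrf1, Ddi2 and Ngly1), 0 were called and 4 lay above 0. Nrf1, at 0.048, is a gene separate from Nfe2l1 that was listed by its symbol, and its part in this control was not tested. Nfe2l1, the factor that raises proteasome genes when the proteasome is inhibited, was at −0.115 ± 0.09 (adjusted p = 0.415, edgeR). Of 14 genes of ubiquitin supply, shuttling and extraction, 0 were called, 9 lay below 0 on counts and 3 had the lower mean TPM in lemborexant libraries. At an unadjusted p under 0.05, 4 had a change below 0, against the same 13.5% of all genes.

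The libraries with Cst7 below 1 CPM (0 to 0.252 CPM, lemborexant 1 and 10 and vehicle 1 and 4) were set beside the 15 others (16.4 to 146 CPM). This split was measured from the libraries, 2 of the 4 form a nearly alike pair, and vehicle 4 also had over 3% ribosomal RNA, so values are given as ranges with no test. The left-out immunoproteasome genes separated fully. Psmb8 had 5.18 to 11.5 CPM in the 4 libraries and 22.4 to 99.2 CPM in the others, and Psmb9 had 1.87 to 4.74 CPM against 7.39 to 32.7 CPM. Of the genes that work with the proteasome, Nfe2l2 also separated, lower in the 4 (20.1 to 24.6 against 39.3 to 101.1 CPM). Usp14 (197.1 to 224.1 against 98.22 to 182.1 CPM) and Ufd1 (111.5 to 129 against 83.68 to 111.1 CPM) separated the other way, higher in the 4. Among the 47 tested members, 1 separated, where 8.61% of all genes did, 6.43% lower in the 4: Psme2b had 2.29 to 3.54 CPM in the 4 libraries and 4.32 to 8.86 CPM in the others.

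The other interferon-inducible members overlapped, and for Psme1 and Psme2 vehicle 4 was the library of the 4 that reached the range of the others. Psme1 had 38.0 to 62.3 CPM (median 41.7) in the 4 libraries and 48.3 to 96.5 CPM (median 67.0) in the others. Psme2 had 34.5 to 65.7 CPM (median 35.2) against 46.4 to 108 CPM (median 54.8), and Psmb10 had 66.4 to 107 CPM (median 71.2) against 68.6 to 144 CPM (median 81.1). The 14 constitutive core genes summed to 2209 to 3739 CPM (median 2219) in the 4 libraries and to 2008 to 3944 CPM (median 2295) in the others. Psmb5 had 126 to 263 CPM against 104 to 279 CPM. Markers of activated microglia, 11 genes, summed to 168 to 242 CPM in the 4 libraries and 532 to 2456 CPM in the others, and their part in these values was not tested. Cst7, which made the split, was itself listed among these markers, so their low sums in the 4 are not separate from the split. Between treatments, Psmb8 and Psmb9 had log2 changes of −0.27 ± 0.50 and −0.06 ± 0.46 (adjusted p = 0.762 and 0.952, edgeR). Without the 4 libraries, 0 members and 2.71% of all genes were called between treatments, and the medians were −0.27 for the core and −0.20 for the regulatory particle.

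**Figure D5:**
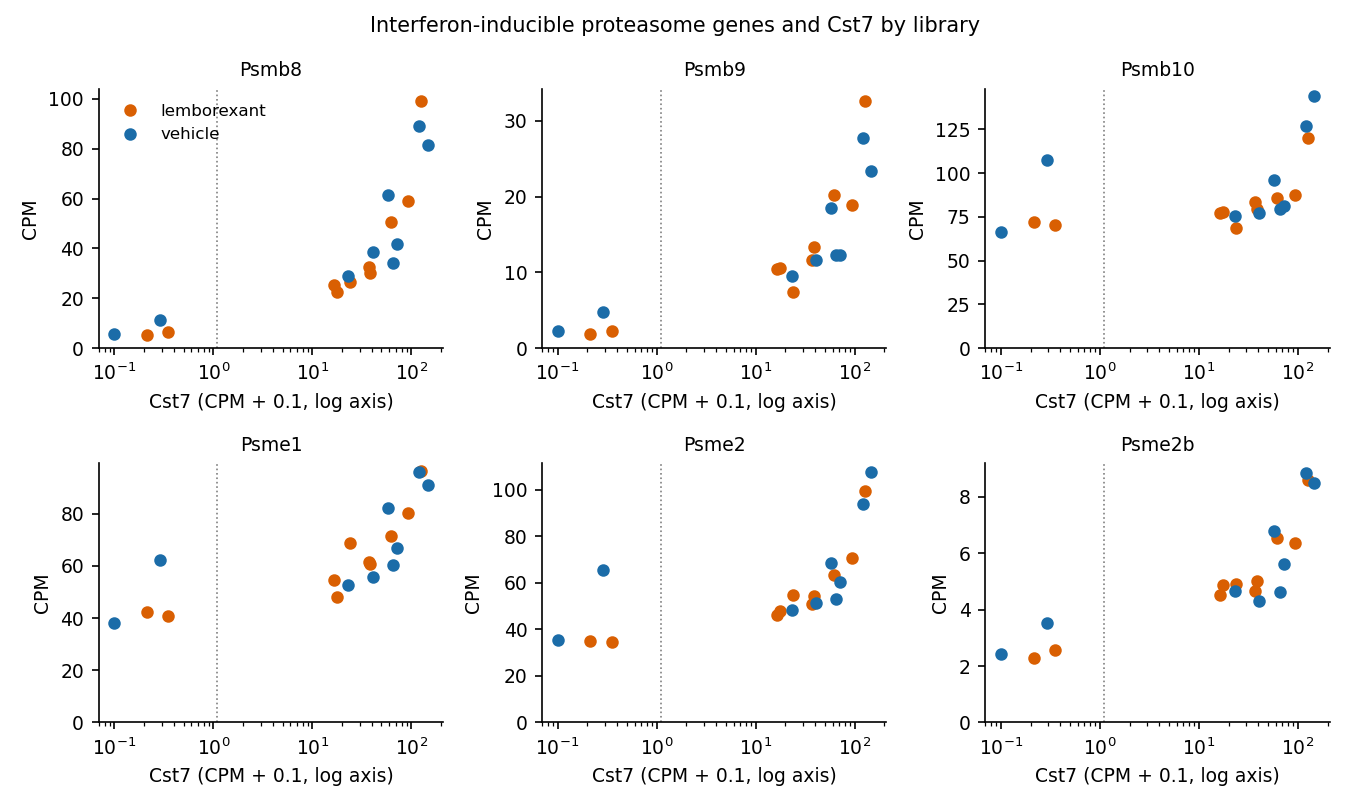
CPM of Psmb8, Psmb9, Psmb10, Psme1, Psme2 and Psme2b (vertical axes) against Cst7 (CPM + 0.1, horizontal log axis; dotted line at a Cst7 of 1 CPM) in each of 10 lemborexant and 9 vehicle libraries. Psmb8, Psmb9 and Psme2b were lower in all 4 libraries below the line than in the 15 above it, and the ranges of Psmb10, Psme1 and Psme2 overlapped.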

How the data were processed

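Cortical RNA from 10 lemborexant and 9 vehicle libraries was compared, with groups from the labels' treatment field. The members and gene lists were chosen with earlier results of these data known. The submitters' processing notes name bcl2fastq, DRAGEN 3.9.3-8 and GRCm38, and the sources used here state neither the annotation release nor the strand setting. The deposited tables hold an estimated count and a TPM value per gene, per the file headers. Because the estimated counts need not be whole, they were rounded for the count tests. TPM is relative to each library's total and to transcript length. GENCODE's GRCm38 annotation gave a symbol for 55141 of 55487 identifiers.

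Counts of all 19 libraries were fitted with edgeR 4.0.16 (quasi-likelihood, robust, TMM, two-sided; R 4.3.3), with Benjamini-Hochberg adjustment over the 19105 genes that passed edgeR's expression filter. Levels are CPM with TMM factors. Alternatives were DESeq2 1.42.0, limma 3.58.1 on log2(TPM + 1) or log2(TPM + 0.1) where the mean reached 1 TPM, other scaling and filtering, covariates, summed pairs and left-out libraries. The count test was tested on simulated data. Medians over genes were not tested. At a depth of at least 20185098 reads a library, counting error is small beside the spread between libraries for most members.

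Named genes are those past the threshold, the largest change in each direction in each class, and a panel of catalytic, inducible, activator and accessory genes. Others (Psma3, Psmc6, Psmg3, Usp14, Ufd1, the genes given as called under an alternative, and the genes at the ends of the level order) were named after their values were seen.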

Additional observations from a re-analysis of the deposited data

Results flagged for a closer look

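A library was taken as outlying where its gap to the nearest library of its group was large for the group's range (Dixon's 95% critical value, 10 or 9 libraries). Of 100 sets of values searched, 16 were outlying. Chance gives about 1 in 20 for independent sets. These sets share libraries and include sums of the same genes, so the search cannot show an excess over chance. Lemborexant 6, which had over 3% ribosomal RNA, stood apart by this measure for 10 genes. In it the alpha subunit genes Psma2, Psma6 and Psma7 had 182.8, 188.7 and 299.8 CPM, against at most 154.9, 155.2 and 238.6 CPM in the other lemborexant libraries. The beta subunit genes Psmb2, Psmb3, Psmb4, Psmb6 and Psmb10 had 185.9, 218.6, 99.74, 349.5 and 120.1 CPM, against at most 152.2, 165.5, 66.16, 271.7 and 87.58 CPM. The core chaperones Psmg3 and Psmg4 had 34.28 and 24.78 CPM, against at most 28.59 and 12.72 CPM. The summed core level was 2851 CPM there, against at most 2342, and the ratio of core to regulatory CPM was 1.068, against at most 0.871.

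In lemborexant 2, the ATPase gene Psmc4 had 165.5 CPM, against at least 182.4 in the other lemborexant libraries, and the 17 regulatory genes summed to 2306 CPM, against at least 2620. In vehicle 5, Psmc3ip had 9.539 CPM, against at most 6.46 in the other vehicle libraries. In vehicle 9, the inhibitor gene Psmf1 had 44.85 CPM, against at least 52.56.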

How the results depend on the processing

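No paired analysis was possible because the labels give library numbers and no replicate number shared between the groups. Of 1643 combinations of a member and an alternative, 92 changed sign and 0 of these were called. Many alternatives leave out 1 library and share the rest with the count test, and the threshold of 0.1 uses the same fit. With limma on either TPM scale, 20 of 46 members lay below 0, against 43 of 47 in the count test. Members called lower, 0 in the count test, numbered 8 with DESeq2 and 10 at an adjusted p of 0.1, and 0 to 4 with 1 library left out. No alternative run called a member higher. The 498 genes called in all became 254 without the expression filter, 1811 with DESeq2, 118 and 26 with limma on log2(TPM + 1) and log2(TPM + 0.1), 2137 at an adjusted p of 0.1, 294 with the number range as a covariate, 8 within libraries 1064 to 1602, 0 within 859 to 933, 307 without lemborexant 7 and vehicle 7, and 0 with the hippocampal score as a covariate. They became 0 with the pairs summed, 0 with the pairs summed and without the libraries of low Cst7, and 0 without the libraries over 3% ribosomal RNA, with or without summed pairs. The alternatives without the libraries over 3% ribosomal RNA, and that of summed pairs without the libraries of low Cst7, were added after seeing the data.

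With 1 library left out, 31 (without lemborexant 9) to 1274 (without vehicle 8) genes were called. The count moved by over 1.5 times without lemborexant 2 (237), 4 (35), 6 (1130) and 8 (257) and without vehicle 1 (844), 2 (250), 3 (189), 4 (39), 5 (76), 6 (275) and 7 (302). The core median, −0.29, was −0.045 with limma on log2(TPM + 1), −0.032 within libraries 859 to 933 and −0.09 without the libraries over 3% ribosomal RNA. With 1 library left out it was −0.34 to −0.21. The regulatory median, −0.20, was 0.034 with limma on either TPM scale, 0.017 within 859 to 933, −0.046 without the libraries over 3% ribosomal RNA and −0.23 to −0.16 with 1 library left out. The cause of these shifts was not tested.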
